A study of Mus musculus with 4 samples.

Results

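The 49 genes described here encode the machinery of G2 and mitosis: the cyclins and kinases that start mitosis, the ubiquitin ligase factors that end it, the kinetochore, the chromosomal passenger complex, the spindle, the cytokinetic apparatus and condensin. They were taken by symbol from a list of mitotic genes, with no cutoff on their measured values. The list was chosen with earlier results of these data known. Of its genes, 49 of 49 were found among the 55414 gene identifiers of the count files. RNA was sequenced from primary neural stem cells of mouse cortex, taken at embryonic day 14.5, expanded as neurospheres in EGF and basic FGF and then plated as a monolayer. Wild type cells (2 libraries) were compared with Mettl4 knockout cells (2 libraries). Mettl4 encodes an adenosine methyltransferase, and the series names proliferation, differentiation and splicing as its subjects. No drug or other treatment separated the groups. The labels do not say whether the libraries of a genotype came from separate embryos or cultures, nor how the knockout was made, so p-values here reflect only how far these libraries spread, part of which may be technical.

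Mitosis is driven by cyclin-dependent kinase 1 bound to cyclin B, which is switched on by Cdc25 phosphatases. Polo and Aurora kinases then build the spindle, and the kinetochore joins each chromosome to its microtubules while the spindle checkpoint holds back the anaphase-promoting complex. When the checkpoint is satisfied, Cdc20 activates that complex, securin and cyclin B are destroyed, the chromatids part and the cell divides. Most of these genes are transcribed only late in the cell cycle, so their RNA in a culture is widely read as a measure of how many cells are dividing. In bulk RNA, fewer dividing cells and less RNA per dividing cell cannot be told apart.

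The late-cycle timing of these genes is set at short elements in their promoters. The best known are the cell cycle homology region (CHR), bound by the MuvB complexes that carry B-Myb or the DREAM repressor, and the CCAAT box, bound by NF-Y. Promoter windows from RefSeq (build GRCm38.p6, 250 bases before to 50 bases after the gene start) were at hand for 40 of the 49 genes, in 42 windows; Foxm1, Cdc25c, Ccna2, Tpx2, Incenp, Aurkb, Kif20a, Spc24 and Smc4 had no entry. The CHR letters TTTGAA, sought on both strands, occurred in 31 of the 42 windows (73.8%) and in 17.9% of all 32851 windows of that length. The variant TTCGAA occurred in 4 of the 42 (9.52%) and in 1.56% of all windows. CCAAT, also on both strands, occurred in 31 windows (73.8%) against 37.4%, and TTTGAA or its variant together with CCAAT in 29 windows (69.0%) against 7.52%. Of the 40 TTTGAA matches in these windows, 30 (75%) lay within 50 bases of the gene start, against 25.3% of the matches in all windows. Other mitotic genes, described further below, lay between. In their 119 windows TTTGAA occurred in 37.8%, CCAAT in 56.3%, and TTTGAA or its variant together with CCAAT in 26.1%. Of their TTTGAA matches, 66.7% lay within 50 bases of the gene start. These are letter matches and not measured binding sites, and windows of a gene with more than 1 start overlap.

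The 5 windows printed here show where these letters lie, or that they are absent, in Ccnb1 and Cdc20, widely used readouts of mitotic entry and exit, and in the members with a window that lay at either end of the range of genotype differences (Pttg1 and Ccnb2 at the low end, Kif20b at the high end). They read 5′ to 3′ along the gene, and capitals mark matches to any of the 3 motifs, read forward or as the reverse complement.
Ccnb1, chr13:100786437-100786736, minus strand: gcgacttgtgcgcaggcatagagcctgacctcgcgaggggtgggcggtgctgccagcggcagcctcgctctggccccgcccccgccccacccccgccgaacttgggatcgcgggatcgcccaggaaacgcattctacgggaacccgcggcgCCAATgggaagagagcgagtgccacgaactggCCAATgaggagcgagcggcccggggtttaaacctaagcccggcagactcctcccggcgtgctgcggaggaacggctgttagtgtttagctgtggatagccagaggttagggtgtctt
Cdc20, chr4:118437294-118437593, minus strand: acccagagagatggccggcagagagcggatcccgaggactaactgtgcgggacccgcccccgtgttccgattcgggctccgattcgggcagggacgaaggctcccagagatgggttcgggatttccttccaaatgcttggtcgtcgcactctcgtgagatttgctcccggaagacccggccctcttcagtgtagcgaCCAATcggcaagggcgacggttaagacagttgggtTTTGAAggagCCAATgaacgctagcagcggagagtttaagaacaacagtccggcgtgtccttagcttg
Pttg1, chr11:43425932-43426231, minus strand: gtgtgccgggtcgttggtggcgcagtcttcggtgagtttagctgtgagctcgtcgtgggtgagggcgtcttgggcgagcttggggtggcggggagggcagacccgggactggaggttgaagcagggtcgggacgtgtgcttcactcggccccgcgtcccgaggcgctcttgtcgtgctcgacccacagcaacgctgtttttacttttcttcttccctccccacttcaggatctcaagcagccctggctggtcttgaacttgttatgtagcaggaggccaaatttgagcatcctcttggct
Ccnb2, chr9:70421505-70421804, minus strand: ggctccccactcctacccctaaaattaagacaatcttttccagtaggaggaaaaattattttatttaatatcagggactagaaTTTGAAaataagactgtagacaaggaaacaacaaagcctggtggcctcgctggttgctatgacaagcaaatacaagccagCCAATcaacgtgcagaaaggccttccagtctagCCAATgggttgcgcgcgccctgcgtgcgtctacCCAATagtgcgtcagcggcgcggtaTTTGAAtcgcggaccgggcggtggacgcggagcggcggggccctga
Kif20b, chr19:34922108-34922407, plus strand: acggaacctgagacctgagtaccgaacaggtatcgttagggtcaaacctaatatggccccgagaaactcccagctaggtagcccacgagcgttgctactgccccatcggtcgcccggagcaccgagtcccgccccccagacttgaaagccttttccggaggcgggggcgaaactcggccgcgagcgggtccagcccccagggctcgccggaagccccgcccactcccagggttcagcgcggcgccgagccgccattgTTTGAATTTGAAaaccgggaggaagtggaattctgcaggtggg
Cdc20 held CCAAT matches that started at positions -53 and -8, and between them a CHR match at position -18, counted from the gene start. Ccnb2 held 3 CCAAT matches upstream, at positions -87, -54 and -21, with 1 CHR match just inside the gene, at position 5, and another far upstream, at position -167. Kif20b held 2 adjoining CHR matches, at positions 8 and 14, and no CCAAT. The Ccnb1 window held 2 CCAAT matches, at positions -99 and -67, and neither CHR form, and the Pttg1 window held none of the motifs. The 31 members with either CHR form had a median log2 fold change between genotypes of 0.03, and the 9 with a window and no match one of 0.06.

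The libraries held 12812064 to 19310668 counts, and 49 of 49 members passed the low-count filter, with 195 to 19143 counts in each library. Levels are given as CPM, counts relative to the TMM-scaled library size, with replicate 1 before replicate 2 of each genotype. Mettl4 itself was at 63.8 and 66.6 CPM in the wild type against 15.6 and 17.6 in the knockout. Its log2 fold change was -1.97 (SE 0.17, adjusted p = 0.0051 by the edgeR quasi-likelihood test with Benjamini-Hochberg adjustment). The labelled cell type was checked on markers: 8 neural stem and radial glia genes summed to between 5120 and 6198 CPM in the libraries. Most of the sum came from Vim (1662 to 1949 CPM), Fabp7 (1635 to 2985 CPM) and Slc1a3 (873 to 1206 CPM). Nes read 258 to 399 CPM and Sox2 174 to 213 CPM. Pax6 (38.9 to 45.2 CPM), Hes1 (16.4 to 21.9 CPM) and Prom1 (6.86 to 7.55 CPM) were far lower. Markers of microglia (5 genes, 6.79 to 7.91 CPM), endothelium (4 genes, 1.13 to 2.13 CPM), mesenchyme and mural cells (5 genes, 2.19 to 7.47 CPM) and red blood cells (4 genes, 0.671 to 4.54 CPM) were low in each library, with 3, 2, 1 and 4 of these genes past the low-count filter and 0 genes at 0 in all 4 libraries. Markers of the neural lineages were present: 6 neuron genes summed to between 1023 and 1358 CPM, nearly all of it Map2, 5 astrocyte genes to between 219.7 and 364 CPM, and 6 oligodendrocyte lineage genes to between 1259 and 1410 CPM.

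The mitotic genes were strongly expressed in both genotypes. Per kilobase of annotated exon, the 49 members ran from 6.38 to 98.3 CPM per kb with a median of 22.5, and 42 of them lay above the 75th percentile of the 13560 tested protein-coding genes. Top2a, the topoisomerase that untangles sister chromatids, led the list at 98.3 CPM per kb, ahead of the cyclin genes Ccna2 (86.4) and Ccnb1 (80.4). Pttg1, which encodes securin, the inhibitor of separase, was the lowest at 6.38 CPM per kb. Summed over the members, the level was 6912 and 7876 CPM in the wild type against 7213 and 8321 in the knockout. The sums of the genotypes overlapped, with a wild type mean of 7394 ± 682 CPM and a knockout mean of 7767 ± 784 CPM (SD, n = 2 each).

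**Figure D1:**
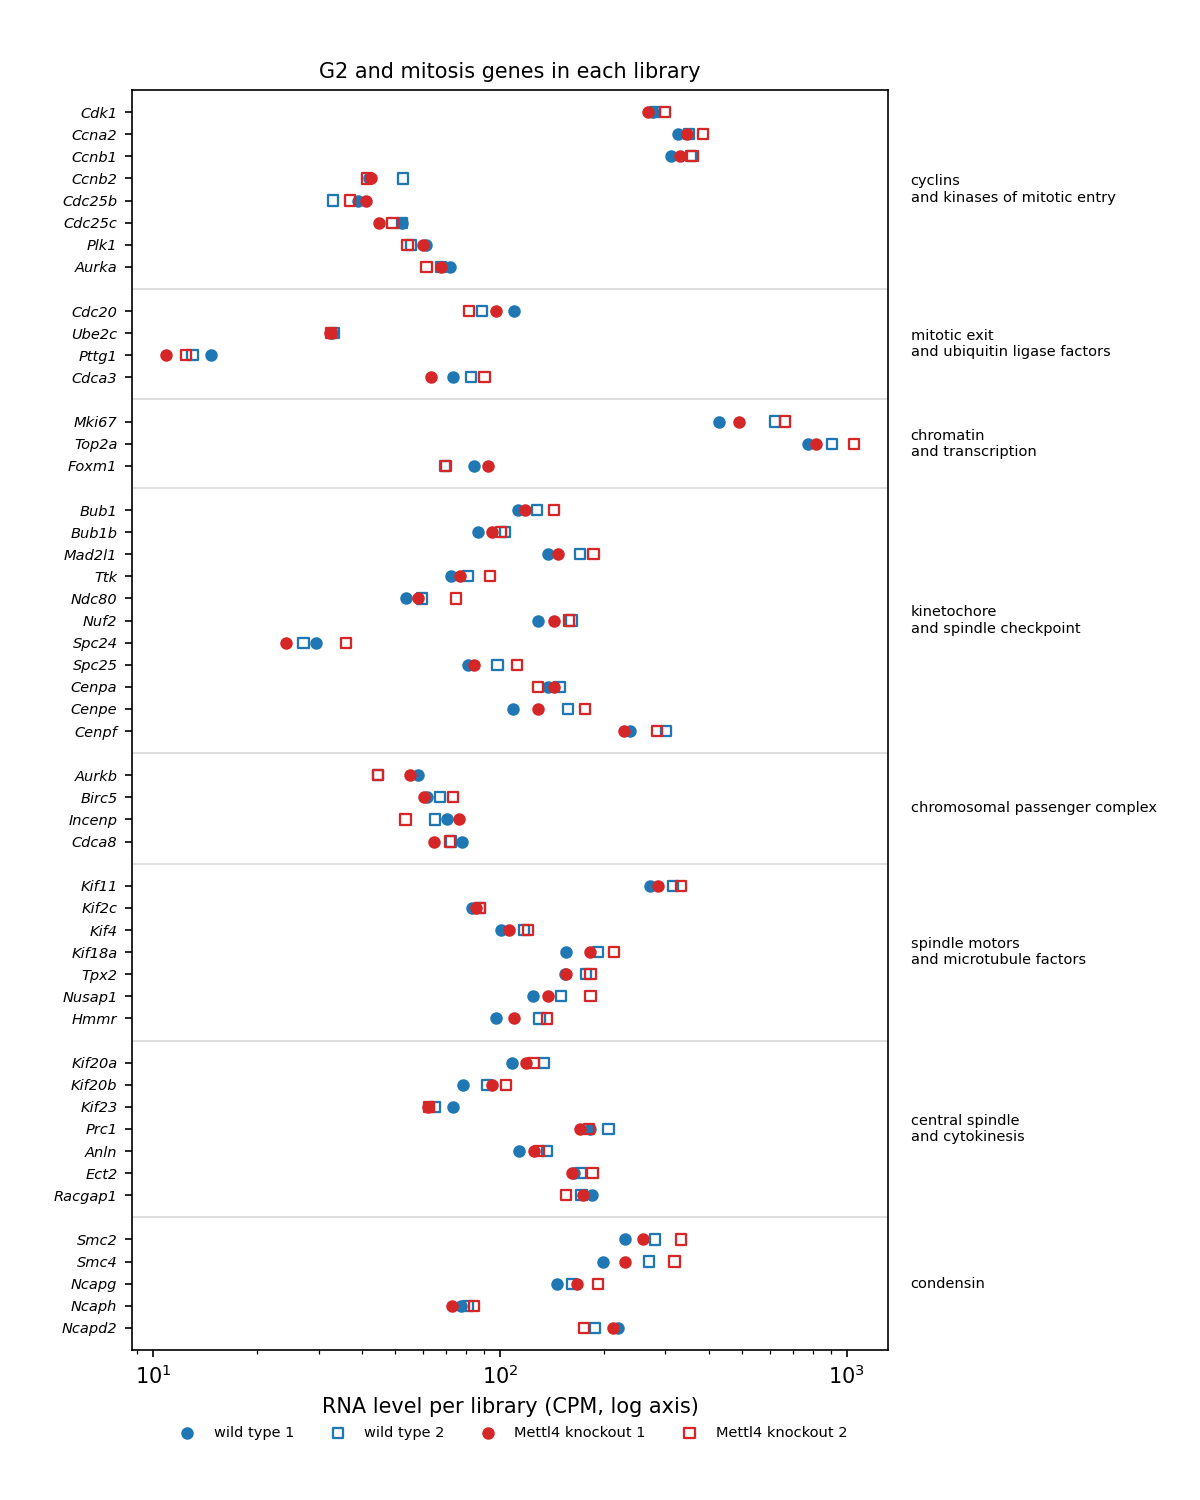
RNA level of each of the 49 genes (rows, by function) in each library, in CPM on a log axis. Blue marks are wild type and red marks Mettl4 knockout, with filled circles for replicate 1 and open squares for replicate 2. Most rows span less than 1.5-fold from the lowest to the highest library, and red and blue marks interleave.

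Of the 49 genes, 0 reached an adjusted p under 0.05. In the edgeR quasi-likelihood test 0 members were called higher and 0 lower, where 0.00502% of the 19912 genes tested were called in all, 0% of them higher and 0.00502% lower. The smallest adjusted p of a member was 0.9999, and 0 members had an unadjusted p under 0.05, against 2.77% of all genes tested. DESeq2 and limma-voom also called 0 members, with 0 at an unadjusted p under 0.05. That count was 3 without knockout replicate 1, where 8.32% of all genes tested had such a p, and 5 with the replicate number in the model, where 7.83% had. The log2 fold changes (knockout minus wild type) ran from -0.25 for Pttg1 to 0.23 for Smc4, and the median standard error was 0.16. The unadjusted 95% intervals of 49 of 49 members lay inside a 2-fold change in either direction, and those of 41 lay inside 1.5-fold. The outermost bounds were -0.73 (Pttg1) and 0.69 (Smc4).

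**Figure D2:**
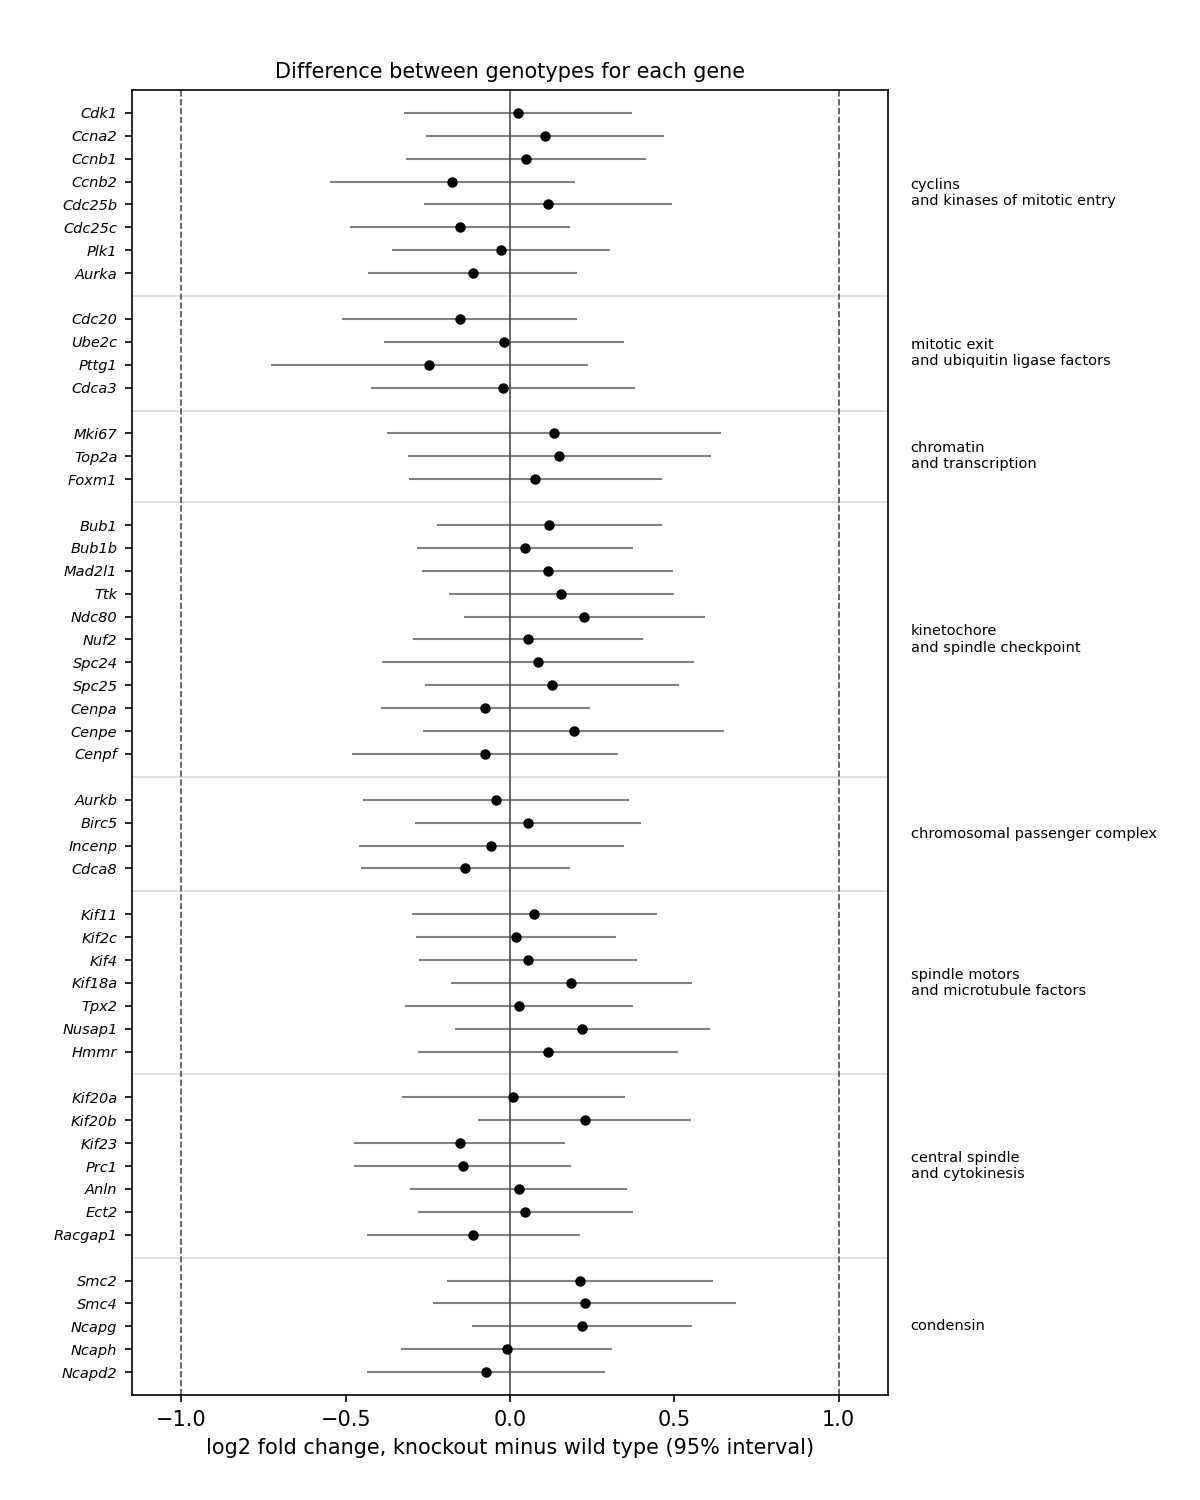
Log2 fold change of each gene, knockout minus wild type, with its unadjusted 95% interval from the edgeR fit. The solid line marks no difference and the dashed lines a 2-fold change. Each interval crosses 0, and 49 of 49 stay between the dashed lines.

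The direction of the small differences was mixed and depended on single libraries. Of the 49 members, 31 lay above 0 and 18 below, with a median log2 fold change of 0.05, while 49.7% of all genes tested were positive with a median of -0.00. Both knockout libraries lay above both wild type libraries for 2 members, Kif20b and Ncapg, where 12.5% of all genes tested did so. Both lay below for 7 members, Cdc25c, Aurka, Ube2c, Pttg1, Cdca8, Kif23 and Prc1, where 14.9% of all genes did so. Taken library by library, 16 members were above the wild type mean in knockout replicate 1 (median -0.02 on the log2 scale) and 33 in knockout replicate 2 (median 0.11). Without knockout replicate 2 the positive count was 15 and the median -0.03. Without wild type replicate 1 it was 21, with a median of -0.03, without wild type replicate 2 it was 35 (0.13), and without knockout replicate 1 it was 33 (0.11).

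Among the cyclins and kinases of mitotic entry, 4 of 8 members were positive and 4 negative, and the median log2 fold change was -0.00. Cdk1, the kinase at the centre of the switch, read 276 and 280 CPM in the wild type against 267 and 299 in the knockout. The knockout libraries thus bracketed the wild type ones, and the log2 fold change was 0.03 (SE 0.16). Ccnb1, its main mitotic cyclin, read 311 and 355 CPM in the wild type against 331 and 359 in the knockout, and Ccna2, the cyclin of S phase and G2, 327 and 352 against 347 and 385 CPM. Both sets of values overlapped between genotypes. Ccnb2, the second B-type cyclin, read 42.0 and 52.7 CPM in the wild type against 42.6 and 41.3 in the knockout (log2 fold change -0.18, SE 0.17), so that only wild type replicate 2 stood higher. Plk1, the Polo kinase, read 61.1 and 55.3 against 60.0 and 54.2 CPM. The phosphatase gene Cdc25c, which activates Cdk1, read 52.2 and 52.2 against 44.8 and 49.04 CPM, with both knockout libraries lower (-0.15, SE 0.15). The remaining members were Cdc25b, another activating phosphatase, at 0.12 (SE 0.17), and the Aurora kinase gene Aurka at -0.11 (SE 0.14).

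Mean ratios of cyclin to kinase RNA lay close together, though for Ccna2 the values of the genotypes did not overlap. Per kilobase, Ccnb1 stood at 1.40 ± 0.116 times Cdk1 in the wild type and 1.43 ± 0.0324 times in the knockout, and Ccna2 at 1.48 ± 0.0587 and 1.56 ± 0.012 times (SD, n = 2 each). The ratio of Ccnb1 to Ccnb2 was 2.69 and 2.45 in the wild type against 2.82 and 3.16 in the knockout. The ratio of Ccna2 to Cdk1 was 1.43 and 1.52 against 1.57 and 1.55. In both of these ratios the wild type values lay below the knockout ones, and neither ratio was tested. Chance alone sets 2 libraries apart from 2 others, in either direction, in 33.3% of cases. Of the other ratios formed within complexes and pairs, Cdca8 to Birc5 and Ncaph to Smc2 were lower in both knockout libraries, and the rest overlapped.

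The 4 genes of mitotic exit and the ubiquitin system were negative in 4 of 4 cases (median log2 fold change -0.09). Cdc20, the activator of the anaphase-promoting complex, read 110 and 88.9 CPM in the wild type against 97.4 and 81.5 in the knockout. The groups overlapped, and the log2 fold change was -0.15 (SE 0.16). Pttg1 read 14.7 and 12.99 against 10.9 and 12.4 CPM, with both knockout libraries below both wild type libraries, and its interval (-0.73 to 0.24) held the lowest bound of the list. Ube2c, the conjugating enzyme that works with the complex, was the steadiest member of the list at 32.5 to 33.2 CPM (highest over lowest library 1.022). Cdca3, a ubiquitin ligase adaptor for mitotic entry, ran from 63.4 CPM in knockout replicate 1 to 90.4 CPM in knockout replicate 2.

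Mki67, Top2a and Foxm1 were the members of chromatin and transcription, and 3 of 3 were positive (median 0.13). Mki67, whose protein coats mitotic chromosomes and is the standard mark of dividing cells, read 428 and 622 CPM in the wild type against 489 and 663 in the knockout. The libraries of a genotype thus differed more than the genotypes did, with means of 525 ± 137 CPM and 576 ± 123 CPM (SD, n = 2 each) and a log2 fold change of 0.13 (SE 0.23, interval from -0.37 to 0.64). Top2a followed the same order, with 773 and 907 CPM in the wild type against 817 and 1048 in the knockout (0.15, SE 0.21). Foxm1, a transcription factor that raises expression of many genes of this list, had its high and low libraries the other way round. It read 84.0 and 69.6 CPM in the wild type against 92.2 and 69.8 in the knockout (0.08, SE 0.17).

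Kinetochore and spindle checkpoint genes were positive in 9 of 11 cases, with a median log2 fold change of 0.11. Ndc80, which grips the microtubule end, read 53.7 and 59.7 CPM in the wild type against 58.0 and 74.7 in the knockout (0.23, SE 0.17). Knockout replicate 2 stood above the other libraries, and knockout replicate 1 lay within the wild type range. The checkpoint kinase gene Ttk read 72.2 and 80.9 against 76.8 and 93.8 CPM (0.16, SE 0.15). Cenpf, a large protein of the outer kinetochore, read 237 and 302 against 228 and 283 CPM and was one of the 2 negative members, at -0.08 (SE 0.18). The other was Cenpa, the histone variant of the centromere, at -0.07. The checkpoint genes Bub1, Bub1b and Mad2l1 were at 0.12, 0.05 and 0.11, and the Ndc80 complex genes Nuf2, Spc24 and Spc25 at 0.05, 0.09 and 0.13. The kinetochore motor gene Cenpe, at 0.19 (SE 0.21), had the widest span between libraries of the 49 genes, from 109 CPM in wild type replicate 1 to 176 CPM in knockout replicate 2.

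The 4 subunits of the Ndc80 complex, which assemble in equal numbers as protein, were unequal as RNA. Per kilobase, Ndc80 was at 0.384 ± 0.0312 times Nuf2 in the wild type and 0.429 ± 0.0469 times in the knockout, and Spc24 at 0.396 ± 0.0778 and 0.377 ± 0.0303 times Spc25 (SD, n = 2 each). In each library Ndc80 and Spc24 were thus the lower of their pairs. The exon lengths behind these ratios take in every annotated exon, so genes with long, rarely used exons read too low.

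The chromosomal passenger complex, which corrects faulty attachments and later marks the cleavage plane, had 1 positive and 3 negative members, with a median of -0.05. Birc5, the survivin gene, read 61.7 and 67.1 CPM in the wild type against 60.5 and 73.4 in the knockout (0.06, SE 0.15), and the knockout libraries again bracketed the wild type ones. Cdca8, the borealin gene, read 77.7 and 72.4 against 64.7 and 71.9 CPM, with both knockout libraries lower by a small margin (-0.14, SE 0.14). Aurkb, the kinase of the complex, was at -0.04, and its scaffold gene Incenp at -0.06. Incenp differed more within the knockout, at 76.5 and 53.4 CPM, than between genotypes.

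Spindle motors and microtubule factors were positive in 7 of 7 cases, with a median log2 fold change of 0.07. Kif11, the motor that pushes the spindle poles apart, read 271 and 316 CPM in the wild type against 286 and 332 in the knockout (0.07, SE 0.17). Kif18a, which trims microtubule plus ends, read 156 and 192 against 182 and 214 CPM (0.19, SE 0.16). Nusap1, which bundles spindle microtubules, read 125 and 150 against 138 and 183 CPM (0.22, SE 0.17). In each of these genes knockout replicate 1 lay between the wild type libraries and knockout replicate 2 above them. Tpx2, the activator of Aurora A, was at 0.03, the microtubule depolymerase Kif2c at 0.02, the chromosome motor Kif4 at 0.05 and the hyaluronan-mediated motility receptor Hmmr, a spindle pole protein, at 0.11.

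Genes of the central spindle and cytokinesis split into 4 positive and 3 negative members, with a median of 0.01. Kif20b, a kinesin of the midbody, read 78.5 and 91.6 CPM in the wild type against 95.1 and 104 in the knockout. Both knockout libraries lay above both wild type libraries, and its p, 0.15 before adjustment in the edgeR fit, was the smallest of the list (0.23, SE 0.15). Kif23, the motor of the centralspindlin complex, read 73.4 and 65.1 against 62.1 and 62.4 CPM, and Prc1, which crosslinks the central spindle, 182 and 206 against 170 and 181 CPM. Both genes were lower in both knockout libraries, at -0.15 (SE 0.14) and -0.14 (SE 0.15). Racgap1, the partner of Kif23, was at -0.11. Ect2, which activates RhoA at the furrow, was at 0.05, the furrow scaffold anillin, Anln, at 0.03, and the passenger complex carrier Kif20a at 0.01.

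Condensin, which folds mitotic chromosomes, had the highest median of the groups at 0.21, with 3 of 5 members positive. Smc2 and Smc4, its ATPase subunits, read 229.98 and 280 CPM, and 199 and 269 CPM, in the wild type. In the knockout they read 259 and 332 CPM, and 229 and 319 CPM, so that knockout replicate 1 lay inside the wild type range in both genes. Their log2 fold changes were 0.21 (SE 0.18) and 0.23 (SE 0.21). Ncapg, a regulatory subunit of condensin I, read 146 and 161 against 167 and 192 CPM, with the groups apart (0.22, SE 0.15). The other regulatory subunits did not share that direction, with Ncaph at -0.01 and Ncapd2 at -0.07. Per kilobase, the ATPase pair stood near 1 to 1, with a ratio of Smc2 to Smc4 of 1.05 ± 0.078 in the wild type and 1.03 ± 0.0586 in the knockout (SD, n = 2 each).

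**Figure D3:**
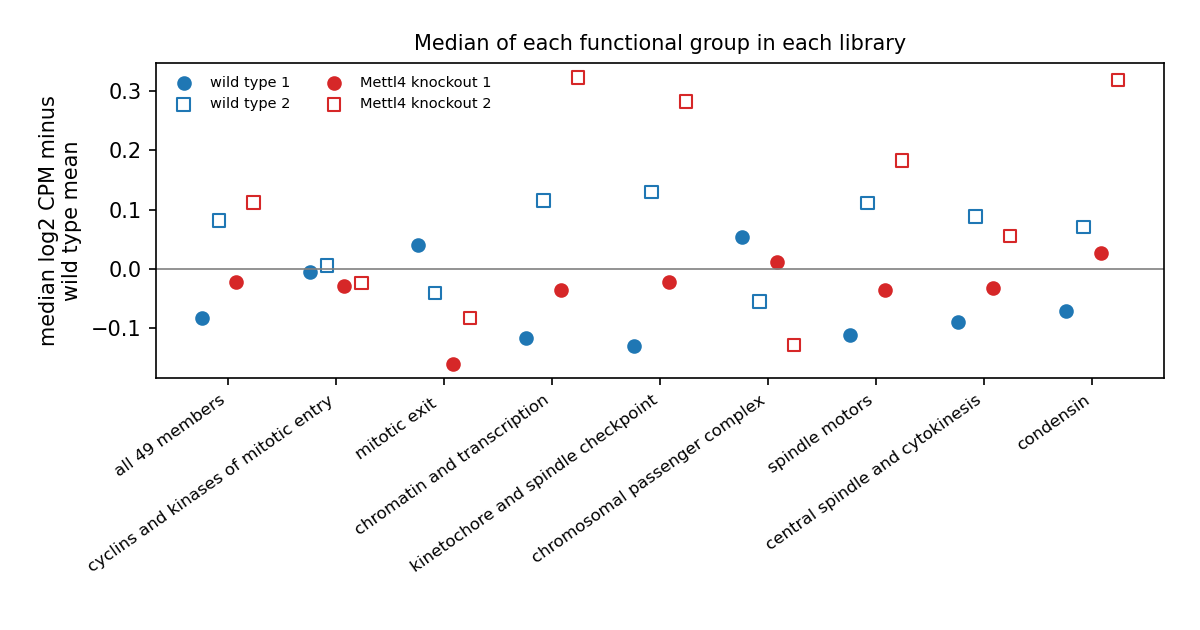
Median over the genes of each functional group, in each library, of log2 CPM minus the wild type mean of the same gene. Blue marks are wild type and red marks knockout, with filled circles for replicate 1 and open squares for replicate 2. Knockout replicate 2 stands highest for chromatin (0.32), kinetochore (0.28), motors (0.18) and condensin (0.32), while knockout replicate 1 stays between -0.04 and 0.03 in these groups.

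For most members the libraries of 1 genotype or of both were further apart than the genotype means. For 45 of the 49 members at least 1 of the genotypes had libraries further apart, on the log2 scale, than the genotype means were, and for 35 both had. These counts were not made over all genes tested, and means vary less than single libraries. Over the members the median absolute difference was 0.21 for the wild type pair, 0.21 for the knockout pair and 0.11 for the genotype means. The same order held over the 19620 tested genes with a GC value, at 0.24, 0.27 and 0.15. Knockout replicate 2 was the highest library for 26 members and wild type replicate 1 the lowest for 25, counts also not made over all genes. The ratio of the highest to the lowest library had a median of 1.25, and it was above 1.5 for 3 members: Mki67 (1.55), Cenpe (1.61) and Smc4 (1.60).

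Both the spread and the small genotype differences moved with base composition. The members' transcripts ran from 36.6% GC (Ncapg) to 56.3% GC (Plk1). Across the 49 genes the difference between the wild type libraries (replicate 2 minus replicate 1) had a Pearson correlation with GC content of -0.66, that between the knockout libraries one of -0.53, and that between genotype means one of -0.61. Over the 19620 tested genes with a GC value the same correlations were -0.22, -0.14 and -0.10. These are descriptions across genes, which share the same 4 libraries and are not independent replicates, and the 3 differences share samples with each other. Of the 24 members lowest in GC, 21 had a positive genotype difference, with a median of 0.12, and of the 24 highest 9 did, with a median of -0.02. All tested genes in the same GC ranges had medians of 0.04 and -0.02.

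The functional groups followed this order only in part. Median GC content was 41.6% in condensin, 44.2% among spindle motors and 44.7% in the kinetochore group, where most members were positive. It was 53.9% among the exit factors and 52.6% in the passenger complex, where most were negative. The remaining groups lay between in GC content, and their directions did not follow it. Positive members were 4 of 7 in the central spindle and cytokinesis group (45.9%), 3 of 3 in chromatin and transcription (47.5%), and 4 of 8 among cyclins and kinases (49.4%). With each library's GC trend over all genes removed, a calculation added after seeing the data, 35 of 49 members were positive, the median was 0.04, and the correlation of the members' log2 fold changes with GC went from -0.59 to -0.40. Whether base composition has a part in the remaining order was not tested.

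**Figure D4:**
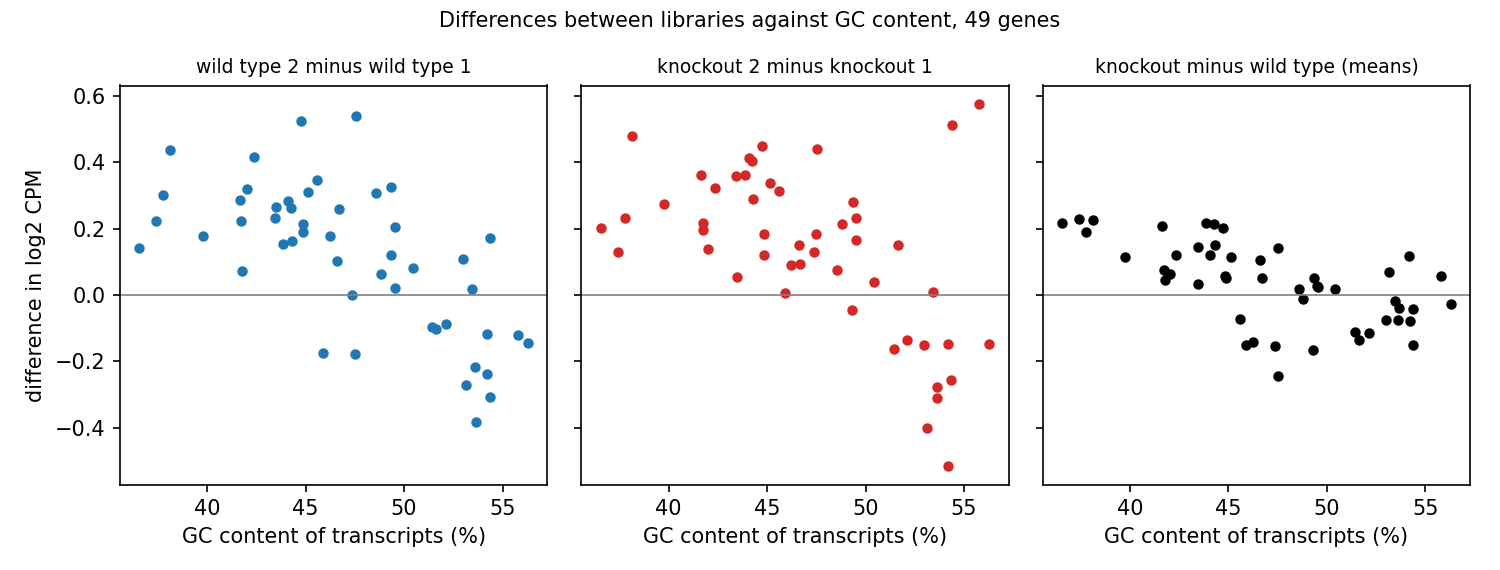
Difference in log2 CPM between libraries (vertical axis) against GC content of the gene's transcripts in percent (horizontal axis), 1 point per gene, for the wild type pair, the knockout pair and the genotype means. In each panel genes of low GC content lie mostly above 0, and genes of high GC content lie on both sides of it.

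The wider mitotic apparatus gave the same picture. Of 119 other mitotic genes listed, 117 were tested, and 0 were called by edgeR, with 0 at an unadjusted p under 0.05; 63 were positive and 54 negative (median log2 fold change 0.01). Genes of the anaphase-promoting complex split 8 to 8 (median -0.01), those of the wider kinetochore and centromere 16 to 16 (0.00), other spindle genes 7 to 6 (0.01) and genes of the centrosome and primary microcephaly 6 to 6 (0.02). Of 14 listed MuvB, DREAM and B-Myb regulators, Lin54 was not matched and so was not measured. The 13 tested, which include E2F factors and their dimer partners, split 7 to 6 (0.01). Among them Tfdp2, a dimer partner of E2F factors, read 99.7 and 107 CPM in the wild type against 89.5 and 86.1 in the knockout (-0.24, SE 0.14), and E2f5, a repressor E2F, 48.9 and 49.02 against 51.4 and 61.1 CPM (0.20, SE 0.16). Other kinases, phosphatases and cyclins had 5 positive and 7 negative members (-0.03), and other cytokinesis genes 5 and 2 (0.02).

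Cohesin and condensin II genes had 9 positive and 3 negative members, with a median of 0.11, the highest of these further groups. Stag2, a cohesin subunit, had the largest log2 fold change and the smallest p of the 117 (0.36, SE 0.19, unadjusted p = 0.087 in the edgeR fit). It read 317 and 375 CPM in the wild type against 383 and 507 in the knockout, with the groups apart. Rad21, the cohesin subunit cut by separase, read 257 and 294 against 278 and 350 CPM (0.19, SE 0.17), and these groups overlapped. Kntc1, which recruits dynein to kinetochores, was lower, at 112 and 104 against 97.6 and 86.3 CPM (-0.23, SE 0.14). Cep55, which organises the final cut of the midbody, read 37.0 and 43.0 against 48.0 and 47.8 CPM (0.26, SE 0.16). The median GC content of the cohesin and condensin II group was 44.5%.

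Counts of some members are uncertain because other annotated genes share their sequence or exons. Of the 49, 6 have a stretch of at least 200 bases at 95% identity or more in the transcript of another gene. Taken copy by copy, the counts of that gene came to 27.9% of the member's for Ndc80 and the pseudogene 2700099C18Rik. For each other copy they came to at most 1.63%, the value of Ccnb1 and its pseudogene Ccnb1-ps. Ccnb1 had further copies, among them Gm12856 at 0.847%, Gm4870 at 0.408% and Gm8416 at 0.18%, so its shared counts exceed that of 1 copy. Exons of 16 members overlap those of another gene in an earlier annotation, on the same strand in 3. The longest overlaps by share of the member's exons were with Cdc23 for Kif20a (29.3%) and with Tnnc2 for Ube2c (22.8%), both on the opposite strand. Tnnc2 had 0 to 2 counts in each library. The small RNA gene Scarna10, which lies within Ncapd2 on the same strand, had 3357 and 7006 counts in the wild type against 5152 and 9157 in the knockout. Ncapd2 itself had fewer in each library, at 2898 and 3085 against 4017 and 3197 counts. The overlap covered 3.78% of the Ncapd2 exons, and its effect on the Ncapd2 counts was not tested.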

How the data were processed

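The authors deposited raw counts of reads per gene for each library, made with STAR 2.7.10 and featureCounts on build GRCm39, per the submitters' processing notes. The treatment of strand and multiply mapped reads was not given in the sources used here. Symbols, exon lengths and GC content came from GENCODE M21, an annotation of an earlier build, which named 52081 of 55414 identifiers, and promoters from RefSeq on GRCm38.p6. Genes were filtered with filterByExpr (minimum count 10), leaving 19912, and knockout was tested against wild type with edgeR 4.0.16 in R 4.3.3 (TMM factors, quasi-likelihood F test, robust=TRUE). Benjamini-Hochberg values cover all genes tested, and the threshold was 0.05. CPM use TMM factors, and log2 CPM a prior count of 2. The standard error was taken as log2 fold change divided by the square root of F; intervals are 95%. The common dispersion was 0.0272 (a coefficient of variation of 16.5%). The fit was checked on simulated counts that gave every gene this same dispersion and held no replicate or GC pattern. That check therefore does not cover the replicate and GC patterns of these data. The identity search used BLAST on annotated transcripts. Libraries of a genotype differed by more than sampling noise (chi-square over its degrees of freedom 12.2 in the wild type, 19.6 in the knockout), so no library was treated as deposited more than once; this does not show that they came from separate cultures. Alternatives were other scaling factors and low-count filters, DESeq2 1.42.0, limma-voom (limma 3.58.1), robust=FALSE, each library left out, the replicate number as a block and, added after seeing the data, removal of each library's GC trend (spline, 5 degrees of freedom). Members with values in each library are Mki67, Top2a, Cdk1, Ccnb1, Plk1 and Foxm1 and, per functional group, the 2 of smallest p, the 1 of highest CPM and the 1 of largest log2 fold change in size; other mitotic genes named are among the 2 of smallest p per list, and a gene that this rule takes is not reported here. Members named beyond this were chosen after their values were seen. Members, lists and rules were chosen with earlier results of these data known.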

Additional observations from a re-analysis of the deposited data

How the results depend on the processing

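Under each of the 15 alternatives 0 of the 49 members were called. The number with a positive log2 fold change was between 31 and 35 under the alternatives that kept the 4 libraries, with a median of 0.04 to 0.06, and between 15 (without knockout replicate 2) and 35 (without wild type replicate 2) when a library was left out, with a median of -0.03 to 0.13. Leaving out a library assumes that the lone library of a genotype varies like the others. The sign changed for 32 members in at least 1 alternative, 24 of them without knockout replicate 2 and 20 without wild type replicate 1, and for at most 4 in any alternative that kept the 4 libraries. Without knockout replicate 1, 3 members had an unadjusted p under 0.05 in the edgeR fit (Ndc80, Nusap1 and Smc4; 8.32% of all genes tested did). The number of genes called over the whole table was 1, and it was 41 without a low-count filter, 6 with DESeq2, 9 with the replicate number as a block and 27 with the block and the GC trend removed. It ran from 1 to 47 when a library was left out, namely 31 and 17 genes when wild type replicate 1 or 2 was absent, and 47 and 1 when knockout replicate 1 or 2 was. The cause was not tested.

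No label says that equal replicate numbers mark pairs. Over 19912 genes the deviations of wild type replicate 1 and knockout replicate 1 from their group means correlated at 0.23. Over the 49 members the replicate differences of the genotypes correlated at 0.68 and had the same sign for 43. The share with the same sign was not taken over all genes. The members share the same 4 libraries and are not independent replicates, so these values cannot show whether replicates are paired. With the replicate number as a block, 5 members (Cenpe, Nusap1, Kif20b, Smc4 and Ncapg) had an unadjusted p under 0.05 in the edgeR fit, where 7.83% of all genes tested did, and the smallest adjusted p of a member was 0.56. The lowest count of a member in a library was 195, and how far depth limits the precision was not tested.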
